A study of Mus musculus with 76 samples.

Results

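The 41 genes described here make up a list of the type I interferon response. They were chosen by gene symbol in the table of whole thymus and joined to the other tables by gene ID, and all 41 were found among the 55487 gene IDs measured. The list holds both chains of the receptor (Ifnar1 and Ifnar2), the transcription factors Stat2, Irf9, Irf7 and Irf1, and genes that interferon turns on. The latter are the RNA sensors and their relatives (Ifih1, Ddx58, Dhx58, Zbp1, Eif2ak2), the Ifit family (Ifit1, Ifit2, Ifit3, Ifit3b), the 2'-5' oligoadenylate synthetase family (Oas1a, Oas2, Oas3, Oasl1, Oasl2), the Mx GTPases (Mx1, Mx2), the guanylate-binding proteins (Gbp2, Gbp3, Gbp7), the ubiquitin-like modifier Isg15 with its protease Usp18, and Ifi27l2a, Ifi27, Ifi35, Ifi44, Rsad2, Cmpk2, Bst2, Rtp4, Xaf1, Parp9, Parp14, Trim30a, Samd9l and Ly6e.

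The libraries came from mice of the SOD1-G93A strain, a model of amyotrophic lateral sclerosis in which a mutant form of human superoxide dismutase 1 is expressed from a transgene. Bulk RNA was sequenced from 4 populations sorted from the thymus at day 30 (d30) and day 120 (d120) of age, labelled cTEC and mTEC (cortical and medullary thymic epithelial cells), Treg (regulatory T cells) and CD4 (CD4 T cells), and from whole thymus and the inguinal lymph node, both without sorting, at d120. Cultures whose cell type is labelled Treg, with titles that read Tregdiff, were sampled without activation (T0) and at activation times labelled T2 and T20, whose unit and stimulus are not given. Each group was split into the genotype labelled Sod1Mut (SOD1 below) and WT, the latter listed under the same strain, with 3 libraries per genotype except WT cTEC and WT CD4 at d30, which had 2. The 76 libraries thus formed 26 groups. No treatment other than the activation of the cultures is named, and the labels do not say whether the libraries of a group came from separate animals, so the p-values below measure the spread between libraries, which may be technical. In bulk RNA, fewer cells of a type and less RNA per cell cannot be told apart.

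Type I interferons, the alpha family and interferon beta, bind a receptor of 2 chains. The kinases bound to the receptor then activate transcription factors, among them STAT2, which joins IRF9 to bind a DNA element called the interferon-stimulated response element (ISRE) in front of target genes; IRF1, which responds most strongly to interferon gamma through the gamma-activated site (GAS), and IRF7 can also bind ISREs. In the thymus, epithelial cells, among them mature cells of the medulla, are known to make interferons and to respond to them in the absence of infection, a tonic state that developing T cells also sense. Many genes of the list also respond to interferon gamma and to interferon lambda, so their levels do not identify the ligand.

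Sequences just before the transcription start were taken from RefSeq (GRCm38.p6, the same assembly as mm10), where 29 of the 41 genes had an entry; Ifi27l2a, Ifi27, Mx1, Mx2, Oas2, Usp18, Rtp4, Zbp1, Dhx58, Parp9, Parp14 and Ly6e were not matched. The ISRE core was searched as GAAA, 2 bases of any kind and GAAA, and the GAS core as TTC, 3 bases of any kind and GAA, each on both strands, from 250 bases before to 50 bases after the start. At least 1 ISRE core was found for 16 of the 29 genes (55.2%), against 3.99% of 27018 genes of the same table, and 2 or more for 7 (24.1%, against 0.266%). A GAS core was found for 9 of the 29 (31%, against 9.55%). The 2 motifs can overlap, and 4 of the 29 (13.8%, against 0.54%) held both. The 200 bases before the start are printed for 5 genes that the comparison of cTEC with mTEC turned on, 5' to 3' on the gene's own strand, with ISRE cores (GAS core for Irf1) in capitals. Isg15 (chr4:156200819-156201018, minus strand) holds 3 overlapping cores that begin 78, 72 and 66 bases before the start, Ifit3 (chr19:34583329-34583528, plus strand) 2 that begin 156 and 122 bases before it, and Gbp2 (chr3:142620463-142620662, plus strand) 1 that begins 59 bases before it. Irf1 (chr11:53769814-53770013, plus strand) holds the GAS core alone, and Oasl1 (chr5:114923040-114923239, plus strand) holds neither. A match describes the letters only.
Isg15: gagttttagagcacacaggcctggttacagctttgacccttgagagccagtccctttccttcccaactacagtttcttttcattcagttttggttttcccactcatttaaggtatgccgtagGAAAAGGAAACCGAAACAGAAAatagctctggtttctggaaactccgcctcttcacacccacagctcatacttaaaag
Ifit3: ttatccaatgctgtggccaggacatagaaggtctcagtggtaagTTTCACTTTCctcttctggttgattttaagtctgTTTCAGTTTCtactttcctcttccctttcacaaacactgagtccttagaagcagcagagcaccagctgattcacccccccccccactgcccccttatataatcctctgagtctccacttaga
Gbp2: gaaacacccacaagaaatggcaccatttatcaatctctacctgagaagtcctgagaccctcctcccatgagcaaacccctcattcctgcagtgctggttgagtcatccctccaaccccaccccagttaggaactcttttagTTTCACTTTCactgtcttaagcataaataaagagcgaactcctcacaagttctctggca
Irf1: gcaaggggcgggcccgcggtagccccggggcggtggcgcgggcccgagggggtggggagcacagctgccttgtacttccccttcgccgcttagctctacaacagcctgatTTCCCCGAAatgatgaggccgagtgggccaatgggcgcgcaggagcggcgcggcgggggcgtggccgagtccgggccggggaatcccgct
Oasl1: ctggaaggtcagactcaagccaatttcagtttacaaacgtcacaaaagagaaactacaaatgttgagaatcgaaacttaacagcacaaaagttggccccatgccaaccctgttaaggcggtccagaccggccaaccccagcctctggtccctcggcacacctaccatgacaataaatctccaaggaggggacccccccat

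The libraries differed widely in depth, from 15135 to 36919936 counts. 8 of them had fewer than 3e+05 counts or fewer than 8000 genes detected and are called shallow below, among them mTEC d30 SOD1 replicate 1, with 15135 counts, in which 19 of the 41 genes were detected and a count of 0 allows up to 103 CPM (counts scaled to a fixed library total, defined below), and cTEC d120 SOD1 replicate 3, in which 35 were detected. Sod1 was higher in every SOD1 library than in every WT library in 12 of 13 sets of libraries. The exception was mTEC at d30, where SOD1 replicate 1, with a single Sod1 count (34.4 CPM), lay within the WT range of 31.2 to 35.1 CPM. The summed level of 7 cTEC markers ran over 8606 to 33956 CPM in the cTEC libraries and 482 to 1581 CPM in the mTEC libraries; the summed level of 8 mTEC markers ran over 1693 to 7828 CPM in cTEC at d120, which overlapped the mTEC range of 5335 to 10637 CPM. Levels, written CPM, are counts divided by the library's total over 1e+06 after scaling the 46 sorted libraries to each other; log2 fold changes are given ± SE, and a gene was called changed at an adjusted p under 0.05 in edgeR's quasi-likelihood test. Levels per library are listed in the order of the replicate numbers.

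Most of the 41 genes were at their highest in cTEC. The mean over libraries was highest in cTEC for 31 of 41 genes (75.6%) at d30 and again for 31 at d120, against 21.9% and 18.9% of the 21733 genes tested. mTEC, the population in which tonic interferon signalling has been placed, held the highest mean for 3 genes at d30 (Oasl1, Usp18 and Parp14) and for 8 at d120 (Ifi35, Irf7, Mx1, Mx2, Oas3, Oasl1, Usp18 and Dhx58), against 38.7% and 39.5% of all genes. Without the shallow libraries cTEC held 30 and 32 and mTEC 5 and 6, with Ifih1 and Oas3 joining mTEC at d30 and Irf7 and Mx1 going to cTEC at d120. With all libraries, CD4 held 6 at d30 (Irf7, Oas2, Oas3, Ifnar1, Ifnar2 and Trim30a) and none at d120, and Treg held Gbp7 at d30 and both receptor chains at d120. The lowest mean of the list, taken per library as the mean of log2(CPM + 1) over the 41 genes, was in CD4 at d120 (4.63 ± 0.33 in SOD1 and 4.4 ± 0.68 in WT, SD, n = 3), and the highest were in cTEC (6.57 to 6.72 over its 4 groups). Per kilobase of exon, which allows genes to be compared with each other, Ifi27l2a and the membrane protein gene Ly6e led in every TEC group, at 651 and 505 CPM per kilobase in cTEC at d30 and 392 and 247 in mTEC at d30.

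**Figure D1:**
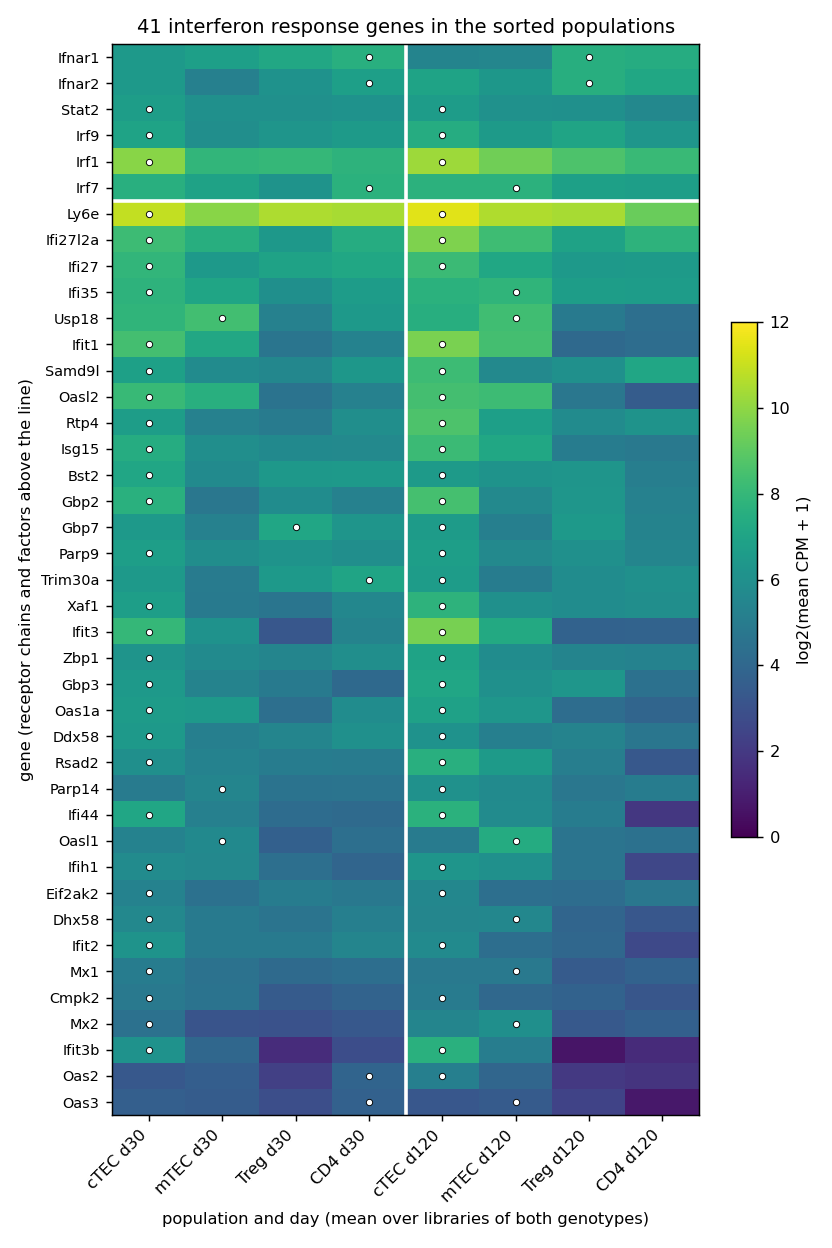
Mean level of each of the 41 genes as log2(mean CPM + 1), by colour, in the 4 sorted populations at d30 and d120 (columns), with receptor chains and factors above the line. The cTEC columns are the highest for 31 of 41 genes at each day.

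The ligands themselves were scarce. Of 17 type I interferon genes, Ifnb1 (interferon beta) was the only one that passed the filter on low counts in the sorted libraries, and it was seen almost only in mTEC. Its counts were 0, 1 and 16 in the SOD1 and 9, 4 and 7 in the WT libraries of mTEC at d30, and 20, 132 and 0 in the SOD1 and 22, 0 and 0 in the WT libraries at d120, at most 4.13 CPM in any library. cTEC held 2 counts over 5 libraries at d30 and 0 in 6 libraries at d120. A count of 0 allows 1.16 to 2.55 CPM in those 6, so Ifnb1 in cTEC at d120 is bounded only loosely. The difference was called at d120 (adjusted p = 0.039) and not at d30 (adjusted p = 0.0572), and at d120 3 of the 6 mTEC libraries held no count.

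The lambda interferons, which signal through a different receptor to the same factors, were likewise seen in mTEC. Ifnl2 was at 0, 6.16 and 2.58 CPM in SOD1 and 4.14, 3.69 and 5.93 CPM in WT at d30. It was at 12.4, 28 and 21.7 CPM in SOD1 and 23.1, 17.9 and 73.2 CPM in WT at d120. The 6 libraries of d120 lay above the 5 of d30 other than SOD1 replicate 1, a shallow library whose 0 allows up to 103 CPM (log2 fold change with age 2.68 ± 0.57, adjusted p = 0.0198). Ifnl2 was 0 in all 6 cTEC libraries of d120. Ifnl3 was at 0, 5.5 and 2.32 CPM in SOD1 and 3.55, 4.1 and 5 CPM in WT at d30. It was at 45.4, 11.3 and 0.658 CPM in SOD1 and 27.2, 16.9 and 26.3 CPM in WT at d120, and both genes were called higher in mTEC than in cTEC at d30 (4.20 ± 1.17, adjusted p = 0.00988, and 4.47 ± 1.14, adjusted p = 0.00655). The lambda receptor chain Ifnlr1 was at 4.37 to 14.8 CPM in cTEC and 0 to 5.93 CPM in mTEC at d30.

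Both receptor chains had their highest means in T cells, not in the epithelium. Ifnar1 was at 164, 192 and 189 CPM in SOD1 and 195 and 204 CPM in WT in CD4 at d30, and at 125 to 172 CPM (median 141) in Treg. The mTEC libraries of d30 were at 275, 63.8 and 97.1 CPM in SOD1 and 61.8, 68.4 and 74.3 CPM in WT, below every CD4 library except for the shallow SOD1 replicate 1, where 275 CPM rests on 8 counts. At d120, Ifnar1 was at 145 to 242 CPM (median 175) in Treg, 113 to 279 CPM (median 167) in CD4, 4.01 to 70.6 CPM (median 47.6) in cTEC and 16.3 to 68.4 CPM (median 45.8) in mTEC, so every T cell library lay above every epithelial library. Ifnar2 was at 183 ± 24.8 CPM (SD, n = 6) in Treg, 142 ± 45.5 CPM (SD, n = 6) in CD4, 124 ± 51.5 CPM (SD, n = 6) in cTEC and 80.4 ± 43.4 CPM (SD, n = 6) in mTEC. Its 4 populations are given here in order of their means, and the ranges of neighbours in that order overlapped.

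Of the factors behind the receptor, Irf1 was called between mTEC and cTEC at d30, as described below, and Stat2 and Irf9 were not. Stat2, a transcription factor activated behind the receptor, was at 103 ± 37 CPM (SD, n = 5) in cTEC and 64.4 ± 6.39 CPM (SD, n = 6) in mTEC at d30. Irf9, the DNA-binding partner of STAT2, was at 124 ± 13.3 CPM (SD, n = 5) and 60 ± 13.7 CPM (SD, n = 6). For both genes every cTEC library lay above every mTEC library at d30 (Stat2 -0.73 ± 0.40, adjusted p = 0.2; Irf9 -0.99 ± 0.39, adjusted p = 0.0584). Irf7, which drives the second wave of interferon alpha genes, was at 245, 172 and 203 CPM in SOD1 and 232 and 144 CPM in WT in CD4 at d30. It was at 83.5, 59.4 and 68.7 CPM in SOD1 and 60.3, 94.5 and 54.1 CPM in WT in Treg, with no overlap.

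The genes that interferon turns on ranked differently from the receptor. Isg15, whose product is attached to other proteins and also secreted, was at 155 to 545 CPM (median 269.5) in cTEC, 79.7 to 220.1 CPM (median 134) in mTEC, 16.6 to 44.5 CPM (median 30.3) in Treg and 11.8 to 48.2 CPM (median 28.2) in CD4 at d120. Every epithelial library exceeded every T cell library. Ifit1 was at 362 to 1222 CPM (median 843) in cTEC, 218 to 563 CPM (median 294) in mTEC, 7.61 to 25 CPM (median 17) in Treg and 0 to 55.7 CPM (median 17.2) in CD4 at d120, with the same separation. Ifi27l2a was at 310.4 to 1734 CPM (median 647) in cTEC, 177 to 466 CPM (median 321) in mTEC, 44.5 to 196 CPM (median 121) in Treg and 30.4 to 572 CPM (median 139) in CD4, with overlap between all neighbours in the order of their means. Bst2 was at 40.8 to 155 CPM (median 74.2) in cTEC, 60.5 to 82.9 CPM (median 68) in mTEC, 33.2 to 119 CPM (median 69.5) in Treg and 16.9 to 51.9 CPM (median 33.4) in CD4. The CD4 range of Bst2 lay below that of mTEC and overlapped the other two. Zbp1, a sensor of Z-form nucleic acid, was at 51.3 to 307 CPM (median 85.6) in cTEC, 24.4 to 96.4 CPM (median 56.3) in mTEC, 16.4 to 54.2 CPM (median 43.9) in Treg and 10.1 to 69.8 CPM (median 32.2) in CD4, and Irf7 at 84.2 to 355 CPM (median 179.7) in cTEC, 149 to 373 CPM (median 179) in mTEC, 92.7 to 144 CPM (median 99.8) in Treg and 63.4 to 134 CPM (median 106) in CD4.

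At d30, 12 of the 41 genes were lower in mTEC than in cTEC and 0 higher; 5.69% and 16.6% of all genes tested were called lower and higher. The median log2 fold change of the 41 was -0.91, against 0.03 over all genes. In 18 of the 41, every cTEC library lay above every mTEC library, against 11.9% of all genes, and none showed the reverse order, which 4.44% of all genes did. With only the cTEC and mTEC libraries of d30 in the fit, which then set their own dispersion, 26 were lower and 0 higher. The 5.69% and 16.6% belong to the main fit, and the shares of all genes in this smaller fit are not given here. Without the shallow mTEC library 19 showed the first order and 1, Usp18, the reverse, against 13.4% and 22.5% of all genes.

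Irf1, an interferon-induced transcription factor, had the smallest adjusted p of the 41 at d30. It was at 725, 1107 and 824 CPM in SOD1 and 720.1 and 1263 CPM in WT in cTEC. It was at 241, 217 and 212 CPM in SOD1 and 249, 260.0 and 232 CPM in WT in mTEC. All 6 mTEC libraries lay between 212 and 260.0 CPM, under every cTEC library (log2 fold change -2.01 ± 0.25 (SE), adjusted p = 1.06e-06). Gbp2, a GTPase that attacks vacuoles of intracellular pathogens, was at 204, 172 and 198 CPM in SOD1 and 194 and 201 CPM in WT in cTEC. It was at 0, 18.2 and 34.6 CPM in SOD1 and 42.4, 20.9 and 40.6 CPM in WT in mTEC, again without overlap (-2.74 ± 0.45, adjusted p = 7.99e-05). Bst2 (tetherin), which holds budding virus particles at the membrane, was at 148, 99.5 and 127 CPM in SOD1 and 201 and 116 CPM in WT in cTEC. It was at 68.8, 39 and 38.2 CPM in SOD1 and 65, 43.2 and 57.2 CPM in WT in mTEC (-1.55 ± 0.36, adjusted p = 0.0023). Each of the 5 cTEC libraries was above each of the 6 mTEC libraries. Xaf1, an interferon-induced gene linked to cell death, was lower in mTEC (-1.72 ± 0.36, adjusted p = 0.00105), as were Ifi27 (-1.36 ± 0.29, adjusted p = 0.00112) and Ly6e (-1.04 ± 0.25, adjusted p = 0.00296). The remaining lower genes were Isg15, Trim30a, Ifit3, Rtp4, Ifnar2 and Ifi44.

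**Figure D2:**
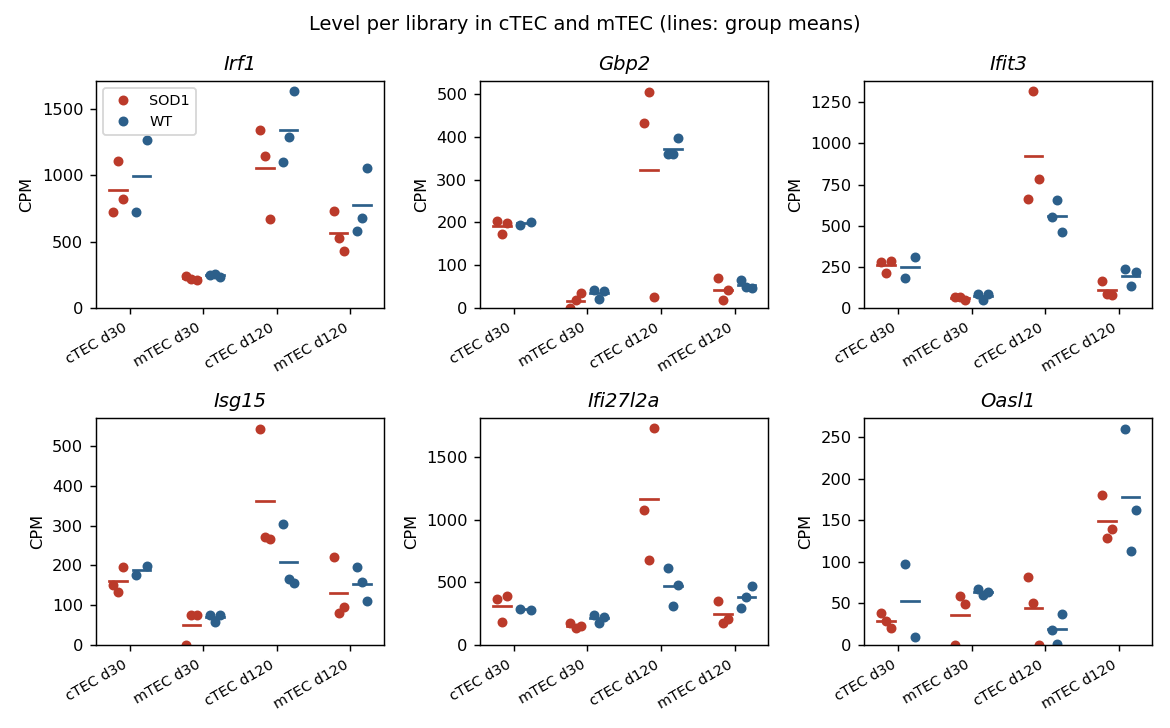
Level in CPM of Irf1, Gbp2, Ifit3, Isg15, Ifi27l2a and Oasl1 in each cTEC and mTEC library at d30 and d120, 1 point per library, coloured by genotype, with group means as lines. Irf1 and Gbp2 lie higher in cTEC at d30 without overlap, while every mTEC library of d120 lies above every cTEC library for Oasl1.

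At d120, 19 of the 41 genes were lower in mTEC and 1 was higher, against 4.97% and 23.7% of all genes; the median of the list was -0.94 and that of all genes 0.62. The lower calls of the 2 days shared 10 genes (Gbp2, Ifi27, Ifi44, Ifit3, Irf1, Isg15, Ly6e, Rtp4, Trim30a and Xaf1), which is 10 of 12 at d30 and 10 of 19 at d120. The comparisons of the 2 days share no library, and the overlap of calls over all genes was not counted. Leaving out mTEC d120 WT replicate 2 gave 12 lower and 1 higher, and a fit of only the libraries compared gave 11 lower and 0 higher. For these fits the shares of all genes are not given here. Every cTEC library lay above every mTEC library for 5 genes (Ifit3, Ifit3b, Ifi27, Rtp4 and Xaf1), against 0.824% of all genes, and for 8 (1.9% of all genes) without the shallow cTEC SOD1 replicate 3.

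Ifit3, which binds other IFIT proteins on viral RNA, was at 661, 1316 and 787 CPM in SOD1 and 556, 656 and 462 CPM in WT in cTEC. It was at 165, 83.3 and 81.6 CPM in SOD1 and 235, 134 and 222 CPM in WT in mTEC at d120. The lowest cTEC library was above the highest mTEC library (log2 fold change -2.28 ± 0.54 (SE), adjusted p = 0.00148). Its reads may be divided with Ifit3b, which is 97.8% identical over 1700 bases and showed the same order. Rtp4, an interferon-induced chaperone of membrane receptors, was at 327, 312 and 691 CPM in SOD1 and 457, 300.2 and 283 CPM in WT in cTEC. It was at 88.7, 44.4 and 54 CPM in SOD1 and 95.6, 115 and 246 CPM in WT in mTEC (-2.01 ± 0.36, adjusted p = 7.81e-05). Gbp2 was at 432, 504 and 26.7 CPM in SOD1 and 359, 359 and 397 CPM in WT in cTEC. It was at 69.7, 18.9 and 41.5 CPM in SOD1 and 65.5, 49.2 and 46.3 CPM in WT in mTEC, and the shallow cTEC SOD1 replicate 3 was the only cTEC library within the mTEC range (-2.84 ± 0.42, adjusted p = 5.30e-06). Xaf1 (-1.75 ± 0.34, adjusted p = 0.000166) and Ifi27 (-1.08 ± 0.27, adjusted p = 0.00241) were also lower in mTEC. The virus restriction factor Samd9l was called lower as well (-1.88 ± 0.40, adjusted p = 0.000495). Its cTEC libraries stood at 239.8, 312 and 1036 CPM in SOD1 and 42.9, 66.3 and 74.7 CPM in WT, against 36.9 to 62 CPM (median 47) in mTEC. The SOD1 libraries of cTEC lay far above the mTEC range, and the WT libraries lay in it or close to it.

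Oasl1, which represses translation of Irf7 mRNA, went the other way. It was at 181, 128 and 139.5 CPM in SOD1 and 261, 113 and 163 CPM in WT in mTEC at d120. It was at 81.6, 50.6 and 0 CPM in SOD1 and 18.1, 0.85 and 36.9 CPM in WT in cTEC, and every mTEC library was above every cTEC library, as for 4.88% of all genes (log2 fold change 2.50 ± 0.60 (SE), adjusted p = 0.00178). With only the cTEC and mTEC libraries of d120 in the fit, the adjusted p was 0.0674. At d30 Oasl1 ranged from 9.14 to 97.0 CPM in cTEC and from 0 to 67.6 CPM in mTEC, and the difference was not called (0.48 ± 0.61, adjusted p = 0.666). The change between days of this difference between the populations was not called either (2.01 ± 0.84, adjusted p = 0.208).

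Other genes of interferon pathways were counted in the same comparisons, against the shares of all genes given above (5.69% lower and 16.6% higher at d30, 4.97% and 23.7% at d120). Of 34 further interferon-stimulated genes, 9 were lower and 0 higher in mTEC at d30, and 15 lower and 1 higher at d120. The exonuclease gene Isg20 was lower at both days (-4.10 ± 0.44 at d30 and -2.78 ± 0.39 at d120). Of 17 genes that interferon gamma favours, 6 were lower and 2 higher at d30 and 7 lower and 5 higher at d120, with the GTPase gene Irgm1 lower at both (-2.37 ± 0.39 and -2.90 ± 0.38). Of 13 nucleic acid sensing genes, 2 were higher in mTEC and 0 lower at each day, a share below that of all genes. They were the DNA-sensing adaptor Tmem173 (2.07 ± 0.52 and 1.21 ± 0.46) and the kinase Ikbke (2.02 ± 0.56 and 2.23 ± 0.52).

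Markers of other cells also differed between the epithelial populations. The summed level of 5 T cell markers was 784 to 1283 CPM in cTEC and 102 to 344 CPM in mTEC at d30, and 99.5 to 223 CPM in cTEC and 10.1 to 119 CPM in mTEC at d120. The 6 double-positive thymocyte markers summed to 547 to 1072 CPM in cTEC and 29.9 to 85.3 CPM in mTEC at d30, and to 18 to 186 CPM and 0.235 to 65.2 CPM at d120. Fibroblast markers summed to 108 to 357 CPM in cTEC and 0 to 129.9 CPM in mTEC at d30, while plasmacytoid dendritic cell markers overlapped (188 to 315 CPM and 206 to 502 CPM). At d120 the plasmacytoid markers overlapped as well (164 to 563 CPM in cTEC and 219 to 912 CPM in mTEC). Markers of conventional dendritic cells and macrophages overlapped at both days and had higher means in mTEC. Those means were 326 CPM in cTEC and 475 CPM in mTEC at d30, and 147 and 705 CPM at d120. Of the 12 genes lower in mTEC at d30, Trim30a and Ifnar2 had a higher mean in CD4 (127 ± 9.15 CPM (SD, n = 5) and 107 ± 34.6 CPM (SD, n = 5)) than in cTEC (88.8 ± 65.7 CPM (SD, n = 5) and 90.1 ± 28.8 CPM (SD, n = 5)). The part of these cells in the differences was not tested.

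**Figure D3:**
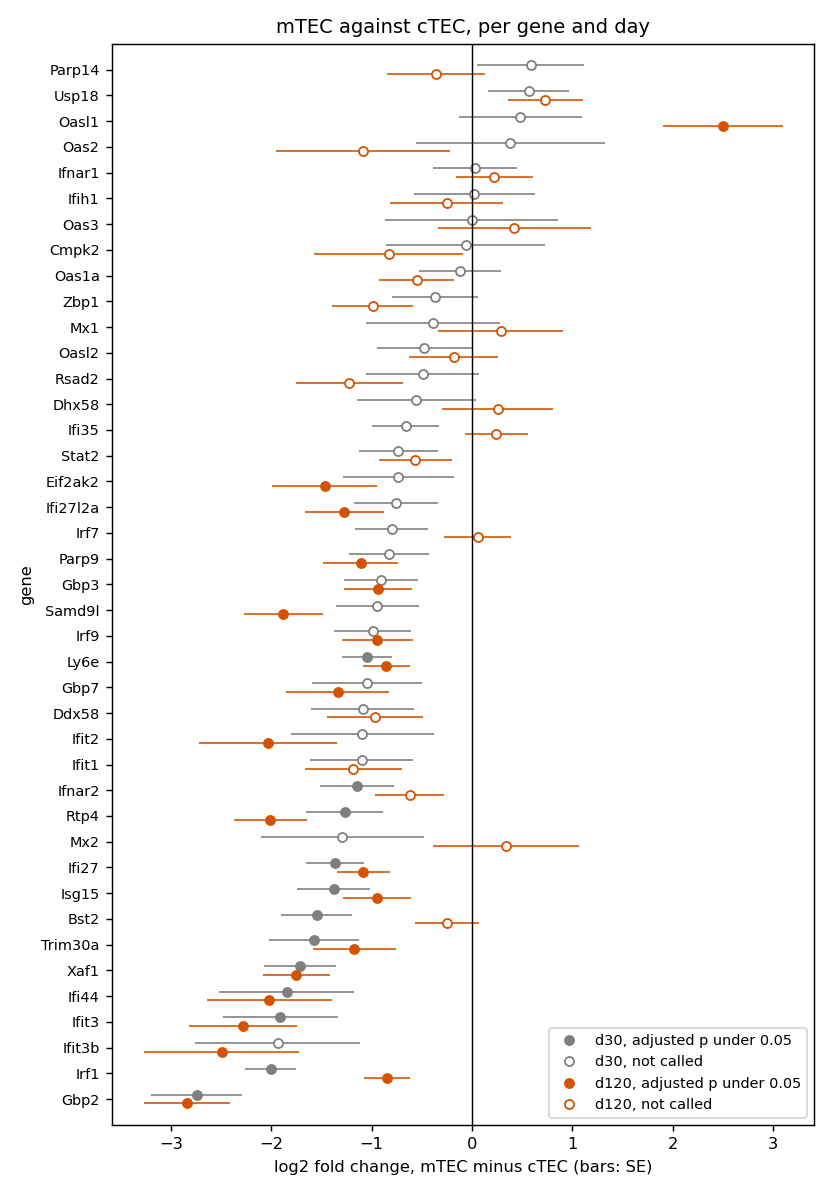
Log2 fold change of mTEC against cTEC for each of the 41 genes at d30 and d120, with SE bars; filled points passed an adjusted p under 0.05 and open points did not. The filled points lie left of 0 (lower in mTEC) for 12 genes at d30 and 19 at d120, and right of 0 for Oasl1 at d120 alone.

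Against CD4 T cells, more of the 41 genes were called in mTEC at d120 than at d30, a difference between days that was not itself tested. The mTEC libraries are the same as in the comparison with cTEC. At d30, 5 of the 41 genes were higher in mTEC and 4 lower, against 31.7% and 11.1% of all genes (medians -0.04 and 0.37). At d120, 21 were higher and 4 lower, against 35.4% and 13.4% (medians 1.12 and 0.77). All 5 genes higher at d30 were also higher at d120 (Gbp3, Ifih1, Ifit1, Oasl2 and Usp18), and 3 genes were lower at both days (Ifnar1, Ifnar2 and Trim30a). The overlap over all genes was not counted. With median-of-ratios scaling, which moved the median of all genes at d30 from 0.37 to 0.68, the d30 split was 8 higher and 2 lower. With only the mTEC and CD4 libraries of d30 in the fit it was 14 higher and 7 lower. The shares of all genes called under these settings are not given here, so these splits are not set against all genes.

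Usp18, which removes ISG15 from proteins and dampens receptor signalling, was at 103, 346 and 386 CPM in SOD1 and 399.8, 360.4 and 407 CPM in WT in mTEC. It was at 122, 69.6 and 98.1 CPM in SOD1 and 108 and 46.6 CPM in WT in CD4 at d30. Only the shallow mTEC library fell within the CD4 range (log2 fold change 1.98 ± 0.43 (SE), adjusted p = 0.000321). At d120 it was at 385, 373 and 388 CPM in SOD1 and 355, 226 and 155 CPM in WT in mTEC. It was at 41.9, 12.5 and 20.6 CPM in SOD1 and 15.7, 26.2 and 1.69 CPM in WT in CD4, without overlap (3.98 ± 0.43, adjusted p = 1.11e-09). Oasl2 was higher in mTEC at both days (2.34 ± 0.51, adjusted p = 0.000398 at d30 and 4.86 ± 0.53, adjusted p = 1.75e-09 at d120), as was Ifit1, which binds viral RNA that lacks a methylated cap (2.01 ± 0.55, adjusted p = 0.0032 and 4.22 ± 0.55, adjusted p = 8.59e-08). Gbp3 (1.5 ± 0.38, adjusted p = 0.00182) and the RNA sensor Ifih1 (1.90 ± 0.64, adjusted p = 0.0149; adjusted p = 0.0815 without CD4 d30 WT replicate 3) completed the higher genes of d30. At d120 Isg15 (2.35 ± 0.36, adjusted p = 1.29e-06), Ifit3 (3.62 ± 0.58, adjusted p = 3.64e-06) and Oas1a (2.48 ± 0.40, adjusted p = 4.08e-06) followed. Oas1a reads may be divided with Oas1g, 97.6% identical over 1861 bases.

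The lower genes were mostly the receptor chains and Trim30a, a TRIM family gene that is 90.1% identical to Trim30d over 1719 bases. At d30 Trim30a (-2.06 ± 0.45, adjusted p = 0.000394) and Ifnar2 (-1.37 ± 0.37, adjusted p = 0.00306) were lower in mTEC, and so were Ifnar1 (-1.10 ± 0.42, adjusted p = 0.031) and Bst2 (-0.88 ± 0.35, adjusted p = 0.0428), whose calls were lost when any 1 of 5 and of 8 of the 11 libraries was left out. At d120 Ifnar1 (-1.93 ± 0.39, adjusted p = 0.000114) and Samd9l (-1.38 ± 0.39, adjusted p = 0.0036) were lower, along with Trim30a (-1.06 ± 0.41, adjusted p = 0.0296) and Ifnar2 (-0.83 ± 0.34, adjusted p = 0.0405), which lost their calls without any 1 of 5 and of 7 of the 12 libraries. The CD4 libraries of d120 held 837050 to 2239878 counts, against 2346044 to 14047347 at d30.

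Between Treg and CD4 cells few genes differed at d30. Irf7 (log2 fold change -1.49 ± 0.35 (SE), adjusted p = 0.0216) and Ifit3 (-2.24 ± 0.57, adjusted p = 0.0387) were lower in Treg and 0 genes were higher, against 0.423% and 0.433% of all genes. An unadjusted p under 0.05 was found for 11 of the 41. The share of all genes with such a p is not given here, so that number is not read as a trait of the list. The count of 2 became 0 without CD4 SOD1 replicate 1, CD4 WT replicate 2, Treg SOD1 replicate 2 or 3 or Treg WT replicate 1 or 3 and 1 without CD4 SOD1 replicate 3, Treg SOD1 replicate 1 or Treg WT replicate 2. Without the shallow libraries of the fit and in DESeq2 it was 4, and with only the Treg and CD4 libraries of d30 in the fit it was 22 (2 higher and 20 lower). The 0.423% and 0.433% of all genes belong to the main fit and not to these settings. Ifit3 was at 52.7, 29.8 and 45.6 CPM in SOD1 and 54.7 and 21.8 CPM in WT in CD4 and at 6.79 to 11.1 CPM (median 8.7) in Treg, and the ranges of the 2 populations did not overlap.

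At d120, 6 genes were higher in Treg than in CD4 and 0 lower, against 4.24% and 1% of all genes (medians 0.37 and 0.44). Gbp3 was at 82, 65.7 and 72.1 CPM in SOD1 and 115, 50.8 and 81.5 CPM in WT in Treg. It was at 12.7, 17 and 20.6 CPM in SOD1 and 26.5, 34.8 and 14.3 CPM in WT in CD4, without overlap (1.91 ± 0.35, adjusted p = 0.000542). Ly6e (1.18 ± 0.24, adjusted p = 0.00152) and Ifi44 (3.42 ± 0.72, adjusted p = 0.00256) kept their calls when any single library was left out. Ifih1 (2.20 ± 0.61, adjusted p = 0.0258), the antiviral radical SAM enzyme gene Rsad2 (2.04 ± 0.57, adjusted p = 0.0258) and Bst2 (1.10 ± 0.33, adjusted p = 0.0381) lost theirs without any 1 of 6, 5 and 8 of the 12 libraries. The count was 3 without CD4 SOD1 replicate 3 or without CD4 WT replicate 3, and 3 with only the Treg and CD4 libraries of d120 in the fit. With median-of-ratios scaling, which moved the median of all genes from 0.44 to 0.10, 4 were higher and 1 lower. The 4.24% and 1% of all genes belong to the main fit and not to these settings. Treg markers summed to 1331 to 2571 CPM in Treg and 658 to 1299 CPM in CD4 at d120, so that the CD4 libraries also held Treg transcripts, and B cell markers to 112 to 353 CPM in Treg and 0 to 198 CPM in CD4. Their part in the results was not tested.

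With age, the few members called in both epithelial populations all rose, and the few called in CD4 cells all fell. In Treg cells called members went both ways, as the calls over all genes did. The libraries of d30 and d120 follow different naming series in the deposited table, and whether they were prepared together is not given in the sources used here, so age and preparation cannot be told apart. In cTEC 4 of the 41 genes rose and 0 fell, against 1.61% and 3.02% of all genes (medians 0.59 and -0.30). In mTEC 4 rose and 0 fell, against 2.09% and 1.06% (medians 0.50 and -0.08). Ifit3 was the gene that rose in both. DESeq2 called 7 in cTEC and 10 in mTEC, all higher, and gene-wise dispersions 8 and 10. The percentages of all genes above do not belong to these settings.

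In cTEC, Ifit3 went from 278, 212 and 287 CPM in SOD1 and 185 and 313 CPM in WT at d30 to the d120 values above, and all 6 libraries of d120 lay above all 5 of d30 (log2 fold change 1.74 ± 0.32 (SE), adjusted p = 0.0116). Rtp4 was at 115, 71.2 and 110.3 CPM in SOD1 and 78.2 and 129 CPM in WT at d30, likewise below every library of d120 (2.23 ± 0.42, adjusted p = 0.0126). Ifi27l2a, a member of the ISG12 family, was at 365, 183 and 388 CPM in SOD1 and 289 and 281 CPM in WT at d30. It was at 1081, 677 and 1734 CPM in SOD1 and 617, 310.4 and 477 CPM in WT at d120, where the ranges overlapped (1.57 ± 0.38, adjusted p = 0.0337), and Ifit1 also rose (1.43 ± 0.37, adjusted p = 0.0418). The calls of Ifi27l2a and Ifit1 were lost without any 1 of 8 and of 9 of the 11 libraries. The count of 4 became 9 without the shallow d120 SOD1 replicate 3, 2 without d120 WT replicate 1 or 3 or d30 SOD1 replicate 1 or 3, 1 without d30 WT replicate 3 and 0 without d30 SOD1 replicate 2 or d30 WT replicate 2. Markers of other cells moved with age in the libraries labelled cTEC. T cell markers summed to 784 to 1283 CPM at d30 and 99.5 to 223 CPM at d120. Double-positive thymocyte markers summed to 547 to 1072 CPM and 18 to 186 CPM. The mTEC markers summed to 1055 to 2082 CPM and 1693 to 7828 CPM, and cTEC markers to 10839 to 33956 CPM and 8606 to 18110.2 CPM. Their part in the changes was not tested. Among other genes, Cxcl10, a chemokine gene that interferons induce, also rose in cTEC (2.54 ± 0.30, adjusted p = 0.0011).

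In mTEC, Irf1 rose from between 212 and 260.0 CPM at d30 to 733, 528 and 432 CPM in SOD1 and 583, 681 and 1056 CPM in WT at d120, without overlap, and kept its call when any single library was left out (log2 fold change 1.52 ± 0.22 (SE), adjusted p = 0.00197). In cTEC Irf1 was at 1341, 1144 and 669 CPM in SOD1 and 1097, 1285 and 1638 CPM in WT at d120, which overlapped its d30 range, and it was not called (0.58 ± 0.27, adjusted p = 0.285). Oasl1 was at 0, 59.4 and 49.6 CPM in SOD1 and 67.6, 60.2 and 63.7 CPM in WT in mTEC at d30 and between 113 and 261 CPM at d120 (1.54 ± 0.29, adjusted p = 0.00969; adjusted p = 0.052 without d30 SOD1 replicate 3). The GTPase gene Mx2 (2.54 ± 0.58, adjusted p = 0.0282) and Ifit3 (1.14 ± 0.27, adjusted p = 0.0352) rose too, and their calls were lost without any 1 of 6 and of 7 of the 12 libraries. Mx2 is 94.8% identical to Mx1 over 921 bases. The count of 4 became 2 without d30 SOD1 replicate 2 or any 1 d30 WT library and 1 without d30 SOD1 replicate 3. Of 6 genes whose d120 libraries all lay above their d30 libraries, Isg15, Ifit1 and Ifi35 were not called. Isg15, Mx2 and Oasl1 were at 0 in the shallow d30 SOD1 replicate 1, which bounds them only loosely. That library was the lowest mTEC library of d30 for 83.2% of all genes tested in mTEC. How many of all genes showed the same order with age was not counted. Isg15 was at 0, 74.3 and 74.4 CPM in SOD1 and 75.8, 57.3 and 75.6 CPM in WT at d30. It was at 220.1, 79.7 and 94.8 CPM in SOD1 and 195, 157 and 111 CPM in WT at d120. The mTEC markers summed to 1927 to 5279.5 CPM in mTEC at d30 and 5335 to 10637 CPM at d120, without overlap. Their part in the changes was not tested.

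The difference between mTEC and cTEC was compared between days by an interaction term, which was called for 1 of the 41 genes, Irf1, against 2.93% of all genes. Its log2 difference between the populations was -2.01 at d30 and -0.84 at d120 (interaction 1.16 ± 0.34, adjusted p = 0.0472). The call was lost when any 1 of 17 of the 23 libraries was left out, with an adjusted p up to 0.186.

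In Treg cells 9 genes rose and 7 fell with age, against 16.1% and 13.8% of all genes, and the medians of the list and of all genes were 0.03 and 0.01. Ifnar2 rose from 83.6, 63 and 63.3 CPM in SOD1 and 66.1, 66.5 and 64.4 CPM in WT at d30 to 196, 206 and 165 CPM in SOD1 and 212, 162 and 155 CPM in WT at d120, with no overlap (log2 fold change 1.40 ± 0.10 (SE), adjusted p = 6.43e-06). Gbp3 (1.39 ± 0.18, adjusted p = 0.000131), Xaf1 (1.19 ± 0.17, adjusted p = 0.000313), Irf1 (0.67 ± 0.12, adjusted p = 0.00146), Ifi35 (0.74 ± 0.14, adjusted p = 0.00175) and Irf7 (0.65 ± 0.14, adjusted p = 0.00326) rose, together with Irf9, Oasl1 and Rtp4. Ifit2 fell by 0.99 on the log2 scale (SE 0.24, adjusted p = 0.00802), and Isg15 by 0.71 (SE 0.19, adjusted p = 0.0152). For these 2 genes every library of d120 lay below every library of d30. Gbp7, Trim30a, Mx1, the RNA-dependent kinase gene Eif2ak2 and Ifi27 fell too. Eif2ak2 lost its call without d30 SOD1 replicate 1 or d30 WT replicate 3 (adjusted p up to 0.0639), and Ifi27 without these or d30 WT replicate 1 (up to 0.0782). The double-positive thymocyte markers summed to 1819 to 2621 CPM in Treg at d30 and 652 to 1157 CPM at d120; their part in the changes was not tested.

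In CD4 cells 6 genes fell with age and 0 rose, against 5.92% and 4.66% of all genes (medians -0.49 and -0.02). Without the filter on low counts 12 fell, a setting to which these percentages of all genes do not belong. Oas3, whose product activates RNase L on long double-stranded RNA, was at 2.99, 13.6 and 23.8 CPM in SOD1 and 12.9 and 7.52 CPM in WT at d30. It was at 0.551, 0.499 and 2.52 CPM in SOD1 and 0, 0.748 and 0 CPM in WT at d120, with no overlap (log2 fold change -3.91 ± 0.90 (SE), adjusted p = 0.0168). Usp18 (-1.88 ± 0.49, adjusted p = 0.0286) and Oas1a (-1.69 ± 0.44, adjusted p = 0.0273) also fell without overlap, as did Ifit2 (-2.77 ± 0.74, adjusted p = 0.0323) and Ly6e (-0.90 ± 0.26, adjusted p = 0.0452), and Dhx58 fell with overlapping libraries (-2.14 ± 0.58, adjusted p = 0.0333). The libraries of d120 were shallower, and a count of 0 allows 1.12 to 2.53 CPM in them and 0.249 to 1.13 CPM at d30. Oas3 lost its call without d30 SOD1 replicate 3 or either d30 WT library (adjusted p up to 0.0864), and the other 5 without any 1 of 5 to 10 of the 11 libraries. The count of 6 became 0 without d30 SOD1 replicate 3, d30 WT replicate 2 or d30 WT replicate 3, 1 without d30 SOD1 replicate 1, 2 without d120 SOD1 replicate 1 and 3 without d120 SOD1 replicate 2 or d30 SOD1 replicate 2. In the CD4 libraries the summed TEC markers were 921 to 3126 CPM at d30 and 257 to 1432 CPM at d120, and the mTEC markers 54.6 to 167 CPM and 0 to 26.5 CPM. At these days the double-positive thymocyte markers were 739 to 1446 CPM and 313 to 712 CPM, and the T cell markers 3289.5 to 4458 CPM and 1705 to 3369 CPM. Their part in the fall was not tested.

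No member was called between SOD1 and WT in any of the 13 comparisons made, which cover 4 sorted populations at 2 days, the lymph node, 3 culture times and whole thymus. Over 486 tests of members, 19 (3.91%) had an unadjusted p under 0.05, against 4.37% of the tests of all genes, and the smallest adjusted p was 0.295. Of all genes, 0.00684% were called in cTEC, 0.00529% in mTEC, 0.0135% in Treg and 0.00801% in CD4 at each day, 0.0574% in the lymph node, 0.0679% in the cultures at T0, 0.0933% at T2 and at T20, and 0.0831% in whole thymus. DESeq2 called 1 member, Samd9l in cTEC at d120, and none in the other 11 comparisons of counts; whole thymus is given as TPM and was tested with limma. The median SE of the members' log2 fold changes ran from 0.25 in whole thymus to 0.71 in cTEC at d30, which sets the size of difference these libraries could show.

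Samd9l in cTEC at d120 had the smallest unadjusted p of the 486 tests (0.000289). It was at 239.8, 312 and 1036 CPM in SOD1 and 42.9, 66.3 and 74.7 CPM in WT, so that the groups did not overlap (log2 fold change 3.23 ± 0.67 (SE), adjusted p = 0.485). Its adjusted p was 0.00209 in DESeq2, 0.00295 with gene-wise dispersions, 0.0067 without the filter on low counts and 0.078 without the shallow SOD1 replicate 3, which held the highest value. Trim30a (2.72 ± 0.92) and Ifi27l2a (1.40 ± 0.49) came next in cTEC at d120, where 4 of 41 members and 9.08% of all genes had an unadjusted p under 0.05.

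In mTEC at d120 the smallest p was that of Ifit2, which was at 10.3, 3.08 and 0 CPM in SOD1 and 30.4, 11.1 and 61.2 CPM in WT (-2.87 ± 0.95, adjusted p = 0.364), and 5 of 41 members had an unadjusted p under 0.05, as did 8.17% of all genes. In Treg cells at d120 Oasl2 was at 40.9, 27.2 and 42.4 CPM in SOD1 and 10.3, 15.8 and 18.4 CPM in WT, without overlap (1.18 ± 0.33, adjusted p = 0.669), and 3 members had an unadjusted p under 0.05 (6.74% of all genes). CD4 cells at d120 held 2 such members (6.22% of all genes), led by Dhx58 (2.36 ± 0.84, adjusted p = 0.72). At d30 no member reached an unadjusted p under 0.05 in any of the 4 populations, where 0.321% (cTEC), 0.359% (mTEC), 1.48% (Treg) and 0.28% (CD4) of all genes did. The difference between days in the effect of genotype was called for 0 members and 0% of all genes in each population; 2 members in cTEC, 2 in mTEC, 1 in Treg and 0 in CD4 had an unadjusted p under 0.05, against 3.76%, 4.14%, 3.64% and 2.22% of all genes, and DESeq2 called none.

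In whole thymus most of the 41 genes were high or low in the same libraries, and the spread lay within genotypes. The median deviation of the 41 from their own means over the 6 libraries, on the scale log2(TPM + 1), was -0.22, 0.39 and -0.03 in WT replicates 1, 2 and 3 and 0.08, 0.16 and -0.39 in the SOD1 replicates, against -0.15 to 0.07 over all genes. In WT replicate 2, 37 of the 41 genes lay above their own mean, and in SOD1 replicate 3 5 did. WT replicate 2 was the highest library for 25 of the 41 genes, against 13.6% of all genes, and SOD1 replicate 3 the lowest for 27, against 41.6%. Ifi27l2a was at 279, 325 and 218 TPM in SOD1 and 276, 507 and 292 TPM in WT. Rtp4 was at 44.9, 51.1 and 28.6 TPM in SOD1 and 30.5, 67.5 and 36.5 TPM in WT, and Irf7 at 65.6, 69.9 and 44.3 TPM in SOD1 and 49, 85.6 and 53.4 TPM in WT. For all 3 genes WT replicate 2 was the highest of the 6 libraries and the genotypes overlapped. Bst2 went against that order, at 152, 169 and 182 TPM in SOD1 and 175, 99.9 and 163 TPM in WT, with WT replicate 2 the lowest. Of the 41, 0 were called by limma and 0 had an unadjusted p under 0.05 (0.0831% of all genes were called and 3.42% had such a p). The smallest p were those of Gbp3, Ifi44 and Gbp2, at log2 fold changes of -0.47 ± 0.22, -0.79 ± 0.41 and -0.27 ± 0.16 (adjusted p = 0.999).

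**Figure D4:**
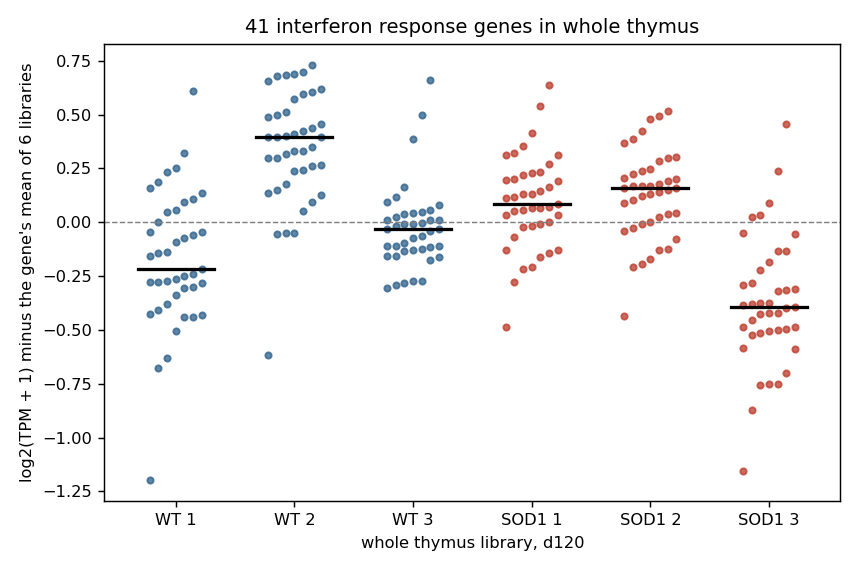
Deviation of each of the 41 genes from its own mean over the 6 whole thymus libraries of d120, on the scale log2(TPM + 1), per library and genotype. WT replicate 2 lies highest (median 0.39) and SOD1 replicate 3 lowest (median -0.39), so the spread within each genotype exceeds the difference between genotypes.

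In the inguinal lymph node only 18 of the 41 genes passed the filter, in libraries of 63887 to 894958 counts, and 0 were called between genotypes; 1 had an unadjusted p under 0.05, 4.99% of all genes had, and DESeq2 called 0. That gene, the ADP-ribosyltransferase family member Parp9, was at 18.5, 14.5 and 30 CPM in SOD1 and 46.3, 48.9 and 47.9 CPM in WT, with every SOD1 library below every WT library (log2 fold change -1.14 ± 0.45 (SE), adjusted p = 0.968). Replicate 2 of each genotype was shallow, and its Parp9 value rests on 3 counts in SOD1 and 3 in WT. Parp9 exons overlap those of Dtx3l on the opposite strand over 458 bases, and reads of the 2 genes cannot be told apart where strand is not kept. Irf1 was at 83.9, 43.5 and 93 CPM in SOD1 and 151, 114 and 117 CPM in WT, also lower in each SOD1 library. Its replicate 2 values rest on 9 counts in SOD1 and 7 in WT. Ly6e, at 816, 731 and 582 CPM in SOD1 and 615, 619 and 805 CPM in WT, overlapped.

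In the cultures, members of the list changed in both directions after T0, as all genes did. Of the 33 genes that passed the filter, 10 rose and 8 fell at T2 and 12 rose and 5 fell at T20, each against T0, where 23.8% and 34.3% of all genes rose and fell at T2 and 24.1% and 34.1% at T20. The 2 comparisons share the T0 libraries. Treg markers moved with time: Foxp3, the defining factor of regulatory T cells, was at 3.56 to 31.8 CPM at T0, 59.4 to 265 CPM at T2 and 39.5 to 325 CPM at T20. The 6 Treg markers summed to 75.6 to 464 CPM, 1684 to 4924 CPM and 1742 to 3726 CPM. Every T0 library lay below every later library in both measures. Double-positive thymocyte markers summed to 159 to 1204 CPM at T0, 8.69 to 185 CPM at T2 and 33.8 to 84.1 CPM at T20. The part of either list in the changes was not tested. The median over the 33 genes was 0.31 at T2 and 0.18 at T20, against -0.24 and -0.25 over all genes. The 10 genes that rose at T2 were also called at T20, and 5 of the 8 that fell. How many of all genes were called at both times was not counted. Between T20 and T2, 0 members were called, as were 0% of all genes; 1 member and 3.88% of all genes had an unadjusted p under 0.05, and DESeq2 called 0.

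The guanylate-binding protein genes Gbp2 and Gbp3 rose most, while Gbp7 rose less (1.36 ± 0.46 at T2 and 1.35 ± 0.45 at T20). Gbp2 was at 18.8, 13.4 and 9.77 CPM in SOD1 and 10.7, 37 and 16.7 CPM in WT at T0. It was at 313, 155 and 404 CPM in SOD1 and 342, 42.3 and 171 CPM in WT at T2. Every T2 library was above every T0 library, the lowest being WT replicate 2 (log2 fold change 3.61 ± 0.50 (SE), adjusted p = 9.14e-06), and the rise at T20 was of the same size (3.59 ± 0.50, adjusted p = 1.02e-05). Gbp3 rose as well (3.24 ± 0.50, adjusted p = 2.68e-05 at T2 and 3.61 ± 0.49, adjusted p = 8.94e-06 at T20). Bst2 was at 2.68, 5.82 and 1.83 CPM in SOD1 and 7.12, 9.8 and 1.96 CPM in WT at T0. It was at 11.5, 52.4 and 69.6 CPM in SOD1 and 50.5, 45.3 and 39 CPM in WT at T2 and 44, 28 and 57.5 CPM in SOD1 and 43.7, 61.7 and 48.2 CPM in WT at T20, above every T0 library at both later times (3.10 ± 0.44, adjusted p = 1.22e-05 and 3.27 ± 0.44, adjusted p = 7.38e-06). Irf1 was at 68, 51.2 and 72.7 CPM in SOD1 and 28.5, 63.3 and 76.5 CPM in WT at T0. It was at 188, 173 and 243 CPM in SOD1 and 197, 105 and 156 CPM in WT at T2 (1.49 ± 0.25, adjusted p = 7.51e-05; at T20 1.67 ± 0.25, adjusted p = 2.59e-05). Ly6e (0.84 ± 0.24, adjusted p = 0.00584 at T2 and 1.25 ± 0.24, adjusted p = 0.000247 at T20), Ifi35 (0.86 ± 0.23, adjusted p = 0.00438 at T2) and the nucleic acid sensor Zbp1 (1.70 ± 0.38, adjusted p = 0.000988 at T20) rose too, with Parp9, Gbp7 and Isg15 at both times and Ifnar2 and Ifi27l2a at T20.

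Other members fell. Ifit2 was at 33.1, 39 and 29.3 CPM in SOD1 and 28.5, 35.6 and 31.4 CPM in WT at T0. It was at 13.8, 7.02 and 13 CPM in SOD1 and 0, 4.29 and 4.1 CPM in WT at T2 and 9.43, 9.34 and 10.2 CPM in SOD1 and 10.4, 9.08 and 10.8 CPM in WT at T20. The 6 T0 libraries lay above all 12 later ones (log2 fold change -2.33 ± 0.28 (SE), adjusted p = 1.91e-06 at T2, and -1.73 ± 0.27, adjusted p = 3.63e-05 at T20). Ifnar1 was at 80.5, 86.1 and 85.5 CPM in SOD1 and 64.1, 85.1 and 57.9 CPM in WT at T0. It was at 40.7, 23.2 and 39.1 CPM in SOD1 and 44.9, 14.7 and 19.1 CPM in WT at T2 and 19.2, 9.34 and 27.1 CPM in SOD1 and 37.3, 18.2 and 25.4 CPM in WT at T20, again without overlap with T0 (-1.52 ± 0.27, adjusted p = 0.000126 and -1.72 ± 0.27, adjusted p = 4.27e-05). The RNA sensor Ddx58 (RIG-I) fell (-2.67 ± 0.50, adjusted p = 0.000184 and -1.85 ± 0.47, adjusted p = 0.00274), with 42.0 CPM in T20 SOD1 replicate 2, a shallow library, within the T0 range, and so did Samd9l (-2.5 ± 0.58, adjusted p = 0.00123 and -2.46 ± 0.57, adjusted p = 0.00118). Ifi27 (-1.08 ± 0.30, adjusted p = 0.0048; adjusted p = 0.0843 without T0 SOD1 replicate 3), Trim30a (-0.98 ± 0.33, adjusted p = 0.0154; lost without any 1 of 6 of the 12 libraries) and Stat2 fell at T2, and Dhx58 at both times (-1.58 ± 0.62, adjusted p = 0.0344 at T20, lost without any 1 of 9 of the 12 libraries). Isg15, although called, stayed at 0 to 9.43 CPM in all 18 libraries, and Ifit3, Ifit1 and Irf7 at up to 8.73, 16.8 and 20.9 CPM.

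**Figure D5:**
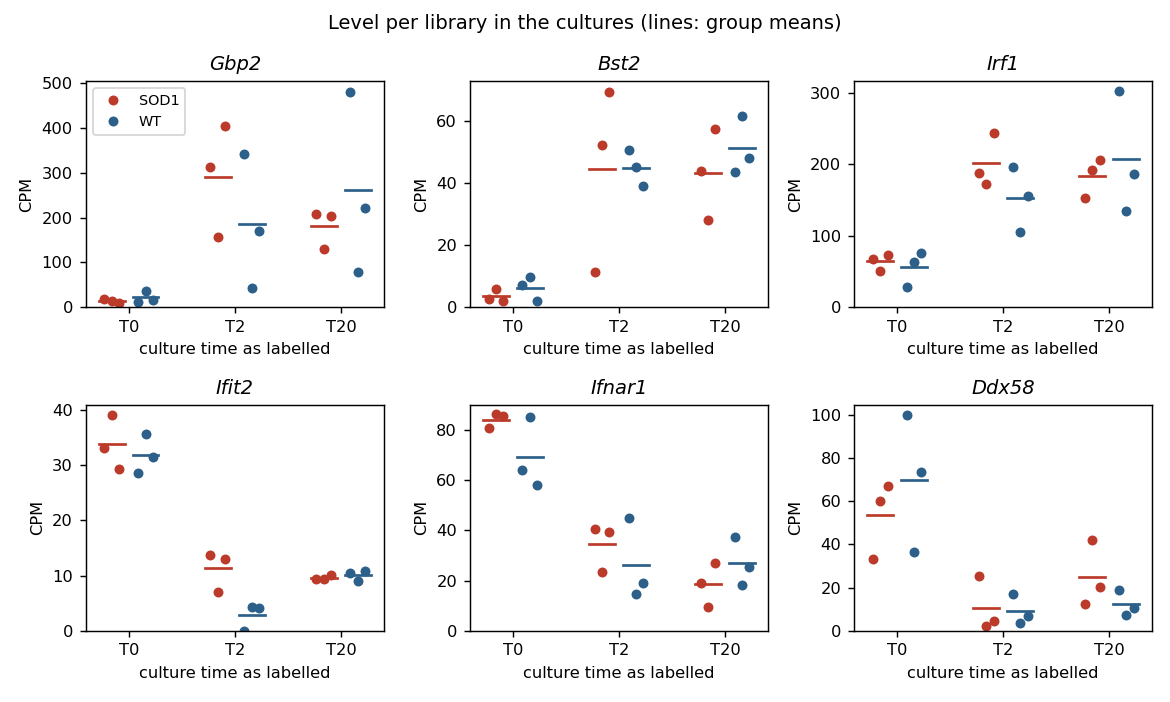
Level in CPM of Gbp2, Bst2, Irf1, Ifit2, Ifnar1 and Ddx58 in each of the 18 culture libraries by labelled activation time, 1 point per library, coloured by genotype, with group means as lines. Gbp2, Bst2 and Irf1 are higher at T2 and T20 than at T0, and Ifit2 and Ifnar1 are lower, in both genotypes.

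The genes around the list were counted in the cultures as well. Of 13 tested genes that interferon gamma favours, 11 rose and 0 fell at each time, against the 23.8% and 34.3% of all genes at T2 and 24.1% and 34.1% at T20 given above (medians 1.79 at T2 and 2.10 at T20), among them the GTPase gene Igtp (2.67 ± 0.32 at T2), Cd274, which encodes PD-L1 (2.37 ± 0.30), and Irgm1 (2.07 ± 0.27). Ifng itself, the interferon gamma gene, was at 0.981 to 108 CPM at T0, 253 to 1063 CPM at T2 and 189 to 625 CPM at T20 (4.82 ± 0.72, adjusted p = 2.06e-05 and 4.35 ± 0.71, adjusted p = 5.52e-05). Ifnb1 was 0 in all 18 libraries, which held 171619 to 19699330 counts, so its level is bounded only loosely in the shallow ones. The part of either interferon in the changes was not tested. Of 31 further interferon-stimulated genes 10 rose and 15 fell at T2, and 10 rose and 16 fell at T20, against the same shares of all genes. Within each time the genotypes were not told apart: 0 of 33 members were called, with 2, 1 and 1 at an unadjusted p under 0.05 at T0, T2 and T20 (5.34%, 8.78% and 2.43% of all genes), and DESeq2 called 0. The smallest p was that of Ifit2 at T2, whose SOD1 libraries given above all lay over the WT libraries (1.5 ± 0.42, adjusted p = 0.295). The WT value of 0 is that of replicate 1, a shallow library of 171619 counts, so this order is bounded only loosely. SOD1 replicate 3 at T2 was shallow as well (228184 counts).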

How the data were processed

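Bulk RNA-seq libraries were made with a SMARTseq v4 low input kit after sorting, or from whole tissue, per the labels' protocols. The authors deposited raw counts per gene for the sorted populations, the lymph node and the cultures, and TPM for whole thymus. The submitters' processing notes name mm10 and DESeq2, with no version or role; which aligner, counter and strand setting were used is not stated in the labels or headers. Groups came from the sample titles. Replicate numbers recur across populations without a stated meaning; in Treg against CD4 at d30 all same-numbered pairs deviated together from their group means (r 0.154 to 0.23 in SOD1 and 0.135 to 0.14 in WT), so a block by number was also fitted.

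Counts were tested with edgeR 4.0.16 (R 4.3.3): TMM scaling, its filter on low counts by group, trended dispersions, quasi-likelihood tests and Benjamini-Hochberg adjustment over all genes tested. Population comparisons came from 1 fit of 46 sorted libraries, averaged over genotypes; age and genotype came from 1 fit per population, and the lymph node and the cultures each had their own. log2(TPM + 1) was tested with limma 3.58.1 after dropping genes whose mean was under 1 TPM. DESeq2 1.42.0, other scalings, filters, dispersions and designs, and leaving out each library (in the sorted fit with the dispersion trend held) were alternatives. The fits were checked on simulated counts. Gene lengths are merged exons of GENCODE vM21, which matched 39 of the 41 genes. Totals ran from 15135 to 36919936 counts; the depth behind the TPM values is unknown. A count of 0 was taken to allow 3 counts, which covers counting error only.

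In each comparison up to 6 called members per direction with the smallest adjusted p are named, or up to 3 with the smallest p where none was called, besides receptor chains, factors and a few set genes. The members, the other gene lists and the markers were chosen with earlier results of these data known. The list of signalling genes is not reported here.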

Additional observations from a re-analysis of the deposited data

Results flagged for a closer look

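Irf1 was the one member whose difference between mTEC and cTEC was called different between d30 and d120 by the interaction term in edgeR. The log2 difference (mTEC minus cTEC) was -2.01 ± 0.25 (SE) at d30 and -0.84 ± 0.23 at d120, an interaction of 1.16 ± 0.34 with an adjusted p of 0.0472, and Irf1 was higher in each mTEC library of d120 than in each of d30. The median interaction over all genes was 0.55. The call was lost without any 1 of 17 of the 23 libraries (adjusted p from 0.0293 to 0.186) and under DESeq2, median-of-ratios scaling, no filter on low counts, both replicate blocks and without the shallow libraries. The summed mTEC markers ran over 1055 to 2082 CPM at d30 and 1693 to 7828 CPM at d120 in the libraries labelled cTEC, and their part in the difference was not tested.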

How the results depend on the processing

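Among counts of called members recomputed under other settings, 187 stayed within 1.5 times the reported count and 24 did not. Among values of named genes, 931 kept their direction and side of the threshold, 36 lost the call, 3 gained one and 1 changed sign. In cTEC with age the count of 4 became 7 in DESeq2, 8 with gene-wise (tagwise) dispersions, 9 without shallow libraries and 2 with the replicate block. In mTEC with age it became 10 in DESeq2, 7 without the filter on low counts and 10 with tagwise dispersions, and in CD4 with age 12 without the filter. With only the groups compared in the fit, mTEC against cTEC gave 26 at d30 and 11 at d120, mTEC against CD4 21 at d30, and Treg against CD4 22 at d30 and 3 at d120; Treg against CD4 at d30 gave 4 in DESeq2 and 4 without shallow libraries. The interaction of Irf1 left 0 called in DESeq2, with median-of-ratios scaling, without the filter, with the replicate block, with the block by library number (a setting added after seeing the data) and without shallow libraries. The genotype comparison in cTEC at d120 gave 1 in DESeq2, without the filter and with tagwise dispersions. The shares of all genes called under these settings are not given here, so a larger count is not a result about the list. The causes of these changes were not tested.

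Leaving out 1 library at a time gave 8 to 13 called members for mTEC against cTEC at d30 and 13 to 22 at d120, 0 to 1 for their difference between days, 6 to 11 and 22 to 25 for mTEC against CD4, and 0 to 2 and 3 to 6 for Treg against CD4. With age the cTEC count ran from 0 to 9, the mTEC count from 1 to 5, the Treg count from 13 to 20 and the CD4 count from 0 to 9. In the cultures they were 14 to 19 at T2 and 14 to 20 at T20, and the genotype comparisons stayed at 0 throughout. Among genes that were not called, the sign turned over the single libraries left out for Bst2 in culture T0 (-1.56 to 0.099), Irf7 in cTEC at d30 (-1.48 to 0.49), Ly6e in CD4 at d30 (-0.11 to 0.51) and Oas3 in the genotype by day term of Treg (-3.01 to 0.043). It also turned for Oas3 in culture T20, to -0.077 without shallow libraries. Median-of-ratios scaling moved the median of all genes from 0.03 to 0.29 in mTEC against cTEC at d30 and from 0.55 to 0.27 in the difference between days.

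The labels do not say what a shared replicate number marks. In Treg against CD4 every same-numbered pair deviated together (r over 0.1) at d30 in both genotypes and at d120 in SOD1, but not at d120 in WT (0.0574 to 0.14). Elsewhere this held in none of the other 8 population comparisons, 1 of 6 of culture time, 0 of 13 of genotype and 0 of 8 of age. With the replicate number as a block the counts were 12 and 14 for mTEC against cTEC at d30 and d120, 7 and 26 for mTEC against CD4, 2 and 6 for Treg against CD4 (as without the block), 15 for Treg with age, 3 for mTEC with age, 6 for CD4 with age, 17 at each culture time and 0 for every genotype comparison.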
